A study of Mus musculus with 8 samples.

Results

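The liver-enriched transcription factors described here are 8 genes picked by name from the 19267 genes of a mouse liver RNA-seq count table. They are the forkhead factors Foxa1, Foxa2 and Foxa3, the CCAAT/enhancer-binding proteins Cebpa and Cebpb, the cut-homeodomain factors Onecut1 and Onecut2, and the homeodomain factor Prox1. All 8 passed the filter on low counts, which left 13993 genes for testing, although Onecut1 passed through the libraries in which it was higher.

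Total RNA came from livers of male C57BL/6 mice, and 8 libraries formed 4 groups with 2 libraries each. WT mice carried Cre recombinase under the villin promoter. Elf4-/- mice carried the same Cre and floxed Elf4, a gene for an ETS-family transcription factor, so that the deletion took place in the intestinal epithelium and not in hepatocytes. Mice of each genotype were pair-fed a Lieber-DeCarli liquid diet for 21 days from 6 weeks of age, with alcohol at 5% (w/v) in the groups called EtOH and with maltose dextrin of equal calories in those called Control. All were 9 weeks old at sampling. The labels do not say whether the libraries of a group came from separate animals, so the p-values measure the spread between these samples.

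Hepatocytes keep their identity through a small set of DNA-binding proteins that occupy the enhancers of the same metabolic genes and of each other. FOXA proteins open compacted chromatin during liver development. C/EBPα drives gluconeogenesis and urea-cycle genes and restrains proliferation, while C/EBPβ, made from 1 mRNA in longer activating and shorter inhibitory forms, takes part in the acute phase response and in liver regeneration. ONECUT factors act in hepatocyte and bile duct differentiation, and PROX1 acts in hepatoblast outgrowth and represses the nuclear receptors HNF4α and NR5A2. Alcohol-associated liver disease is among the settings in which weakening of this program has been studied.

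Library totals ran from 6171051 to 9157362 counts. Elf4 itself had 6 to 36 counts in every library of both genotypes, and since the deletion was made in another organ this level does not check the labels. Hepatocyte markers (9 of 10 listed were in the table) summed to 45950 to 87270 CPM, with none at 0. Genes of the mitochondrial genome took 23.4% and 33.7% of the counts in WT Control and 10.8% to 22.1% in the other libraries. No replicate pair looked like 1 library deposited in duplicate, since equal counts over 50 were shared by 21 to 75 genes in pairs within a group and by 8 to 80 genes in pairs across groups.

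Promoters of 4 of the factors are shown because Foxa3 and Prox1 were the members whose level passed a test of diet, and because Foxa1 and Foxa2 held a forkhead or an ONECUT word. Each run is the 250 bases before a RefSeq start site on GRCm38.p6, written 5′ to 3′ on the strand of the gene, and the capitals mark matches, on either strand, to 5 words: the forkhead word TGTTTAC, the C/EBP palindrome TTGCGCAA, the ONECUT word ATTGATT, the cAMP response element TGACGTCA and the GC box GGGCGG.
Foxa3 (chr7:19023540-19023789, minus strand): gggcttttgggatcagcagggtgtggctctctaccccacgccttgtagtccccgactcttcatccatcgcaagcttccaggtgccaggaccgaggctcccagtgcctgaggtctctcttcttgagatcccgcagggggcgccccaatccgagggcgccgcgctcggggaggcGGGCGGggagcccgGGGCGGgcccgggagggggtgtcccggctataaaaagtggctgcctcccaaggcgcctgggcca
Prox1 (chr1:190170828-190171077, minus strand): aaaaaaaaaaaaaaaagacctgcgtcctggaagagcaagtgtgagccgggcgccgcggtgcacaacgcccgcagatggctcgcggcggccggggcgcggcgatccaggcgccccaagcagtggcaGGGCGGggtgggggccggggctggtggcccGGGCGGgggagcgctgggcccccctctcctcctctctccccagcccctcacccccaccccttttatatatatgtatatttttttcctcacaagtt
Foxa1 (chr12:57546112-57546361, minus strand): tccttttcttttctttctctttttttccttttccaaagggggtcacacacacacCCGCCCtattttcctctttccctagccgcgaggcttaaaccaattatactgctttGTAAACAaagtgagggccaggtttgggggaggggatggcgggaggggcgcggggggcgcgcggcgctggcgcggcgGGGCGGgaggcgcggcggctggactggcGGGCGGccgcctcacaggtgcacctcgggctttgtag
Foxa2 (chr2:148046970-148047219, minus strand): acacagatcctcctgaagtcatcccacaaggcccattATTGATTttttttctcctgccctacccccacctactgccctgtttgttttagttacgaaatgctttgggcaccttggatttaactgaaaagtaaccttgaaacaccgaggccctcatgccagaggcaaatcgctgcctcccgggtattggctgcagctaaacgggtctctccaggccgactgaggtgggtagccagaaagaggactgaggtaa

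The words were searched in windows that also took in 50 bases after the start site. The Foxa1 window held 1 forkhead word, on the opposite strand and 141 bases before the start, a word present in 3.65% of 32851 RefSeq windows of that length. The most upstream of the Foxa2 windows held 1 ONECUT word 213 bases before the start, and 2.86% of all windows hold it. The GC box stood in the windows of each factor with a window except Cebpa, and in 35.7% of all windows. The C/EBP palindrome (0.183% of windows) and the cAMP response element (1.79%) matched in none of them. These matches describe letters only, and no binding was measured. The Foxa1 window lies within the annotated span of Foxa1 in GENCODE M21, downstream of a further annotated start. Prox1 has a further RefSeq window that is not shown, and the start of the one shown lies upstream of its annotated span.

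Per length of exon, the C/EBP factors were the most abundant of the set and Onecut1 the least. Levels are CPM, counts relative to the TMM-scaled library size, divided here by the kilobases of annotated exon so that genes can be compared. The median over 8 libraries was 113 CPM per kb for Cebpb and 106 CPM per kb for Cebpa, and both lay above every other factor in 8 of 8 libraries. They could not be ordered between themselves, as Cebpb was the higher in 5 of 8 libraries and the ranges overlapped (79.9 to 212 for Cebpb and 54.7 to 142 CPM per kb for Cebpa). Foxa3 (median 16.3), Foxa2 (13.6) and Prox1 (13.6 CPM per kb) followed with overlapping ranges. Onecut2 (7.42) and Foxa1 (6.11 CPM per kb) overlapped in turn, and Onecut2 was the higher in 6 of 8 libraries. Onecut1, with a median of 0.234 CPM per kb, was the lowest in every library.

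**Figure D1:**
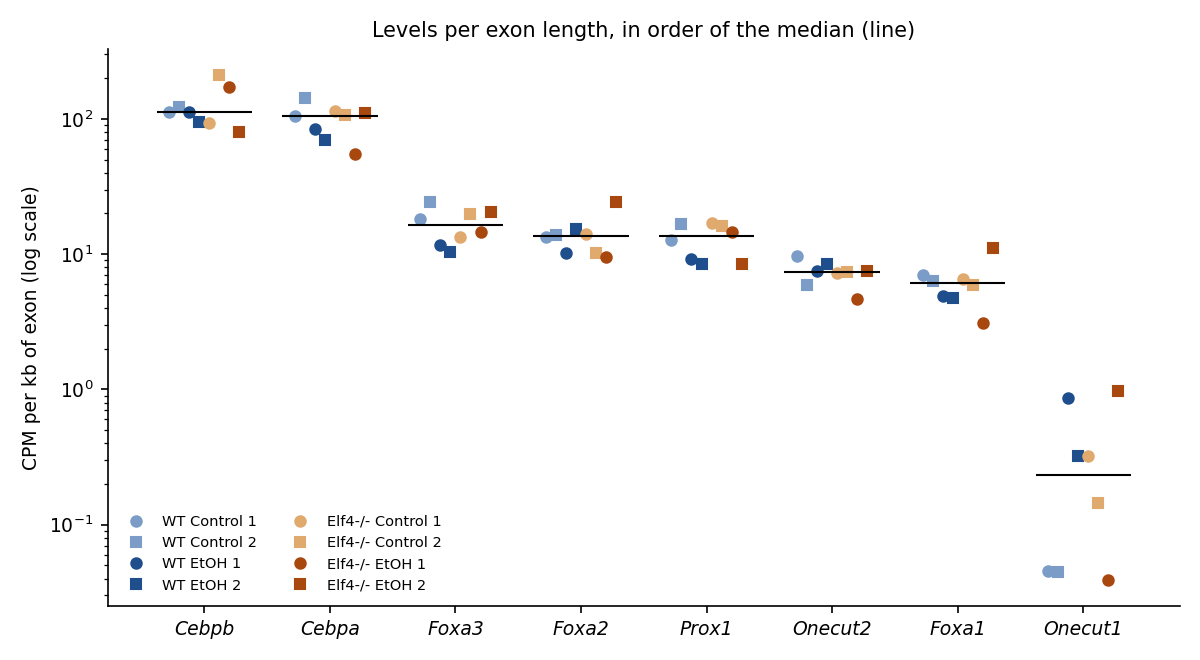
The plot of levels per length gives CPM per kb of exon on a log scale for each factor in order of its median (black line), with 1 point per library coloured by group, circles for replicate 1 and squares for replicate 2. Cebpb and Cebpa sit near 100 CPM per kb, 5 factors lie between 3.11 and 24.1, and Onecut1 stays under 1 in all 8 libraries.

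The annotation limits some of these levels. Onecut1 (chr9:74861921-74891781, plus strand, GRCm38) shares 2171 of its exon bases, 52.8%, with the same-strand lincRNA Gm20649 in GENCODE M21, and reads in a shared stretch would be set aside if the annotation used for counting held both genes. Cebpb (chr2:167688915-167690418, plus strand) is a single exon and shares 312 bases, 20.7%, with exons of Tmem189 on the other strand. Cebpa (chr7:35119293-35121928, plus strand), also a single exon, shares 1.9% with the antisense gene Gm45091, and Prox1 (chr1:190118035-190170714, minus strand) shares 1.6% with Prox1os. Tmem189, Gm45091 and Prox1os have counts of their own, while Gm20649 is not in the count table. The counting is not stated to use strand, so reads in the shared stretches may have been set aside or given to either gene. The annotation used for counting is not given in the sources used here.

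The diet comparison in WT asked what chronic alcohol feeding changed in the liver. Foxa3 fell to 0.521 of its Control level in WT livers under EtOH and was the only member past the threshold in that comparison, 1 of 8 beside 21.6% of all tested genes. DESeq2 called 2 of 8, Foxa3 and Onecut1, beside 2809 of the 13993 tested genes. Prox1, Cebpa and Foxa1 had lower means under EtOH without passing, Onecut1 had a higher one, and Foxa2, Cebpb and Onecut2 were near their Control level. The members' median log2 fold change was −0.33, beside 0.01 over all tested genes.

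Foxa3, the forkhead factor that takes a large share of FOXA transcripts in adult liver, stood at 36.9 and 49.1 CPM in WT livers under Control and at 23.9 and 21.0 CPM under EtOH. In Elf4-/- livers it stood at 27.1 and 40.6 CPM under Control and 29.5 and 41.9 CPM under EtOH. Both WT EtOH libraries lay below the other 6, while the Elf4-/- groups overlapped each other. With 2 libraries a group such separation is common, as the diet groups did not overlap for 66.8% of all tested genes in WT and 52.2% in Elf4-/-. The WT mean was 43.0 ± 8.63 CPM under Control and 22.4 ± 2.05 CPM under EtOH (SD, n = 2). The log2 fold change for diet in WT was −0.94 ± 0.27 (SE, 95% interval −1.53 to −0.35, quasi-likelihood test of edgeR, Benjamini-Hochberg adjusted p = 0.0326). In Elf4-/- it was 0.09 ± 0.26 (interval −0.50 to 0.67, edgeR adjusted p = 0.881). The difference between the genotypes in the diet effect was 1.03 ± 0.37 on the log2 scale, with an unadjusted p of 0.0201 and an edgeR adjusted p of 0.403, so it did not pass.

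The Foxa3 call rested on all 4 WT libraries: the edgeR adjusted p was 0.0523 without WT Control replicate 1, 0.164 without WT Control replicate 2, 0.112 without WT EtOH replicate 1 and 0.181 without WT EtOH replicate 2. Scaled by library totals alone, which moved the median of all genes in this comparison by 0.43 on the log2 scale, the Foxa3 change was −0.51 with an edgeR adjusted p of 0.173. On that scale 3422 genes were called higher and 634 lower, beside 1518 and 1507 with TMM.

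Prox1, which is also a marker of lymphatic endothelium, stood at 107 and 141 CPM in WT livers under Control and 77.4 and 70.8 CPM under EtOH. The Elf4-/- levels were 142 and 135 CPM under Control and 121 and 70.9 CPM under EtOH. Within each genotype both EtOH libraries lay below both Control libraries. Averaged over the genotypes, Prox1 fell by 0.63 ± 0.19 on the log2 scale (SE, interval −1.05 to −0.22), or to 0.644 of Control (edgeR adjusted p = 0.0313). Neither genotype passed alone, with −0.74 ± 0.27 in WT (edgeR adjusted p = 0.0732) and −0.53 ± 0.27 in Elf4-/- (edgeR adjusted p = 0.281), and their difference was 0.21 ± 0.37. Averaged over genotypes, 1 of 8 members was called beside 28.0% of all tested genes, and 4 of 8 beside 40.8% of all genes had an unadjusted p under 0.05.

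The averaged Prox1 call was lost without Elf4-/- Control replicate 1 (edgeR adjusted p = 0.0922), Elf4-/- Control replicate 2 (0.0818), WT Control replicate 2 (0.0945), WT EtOH replicate 1 (0.0776) or WT EtOH replicate 2 (0.104), and with library totals alone, where the change was −0.45 (0.0979). It held without WT Control replicate 1 and without either Elf4-/- EtOH library. The 6 lymphatic endothelial markers summed in WT livers to 34.9 and 15.8 CPM under Control and 60.6 and 83.4 CPM under EtOH, and in Elf4-/- livers to 48.9 and 44.5 CPM under Control and 65.4 and 44.3 CPM under EtOH. They did not move as a set in WT, where Lyve1, Flt4 and Reln, which is also a stellate cell marker, were higher under EtOH without overlap, Mmrn1 was lower, and Ccl21a and Pdpn overlapped. In Elf4-/- all 6 overlapped, and the part of these cells in the Prox1 values was not tested. Pdpn was at 0 in 3 libraries and the other 5 markers were detected in all 8. In bulk liver RNA, fewer cells of a type and less RNA per cell cannot be told apart.

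**Figure D2:**
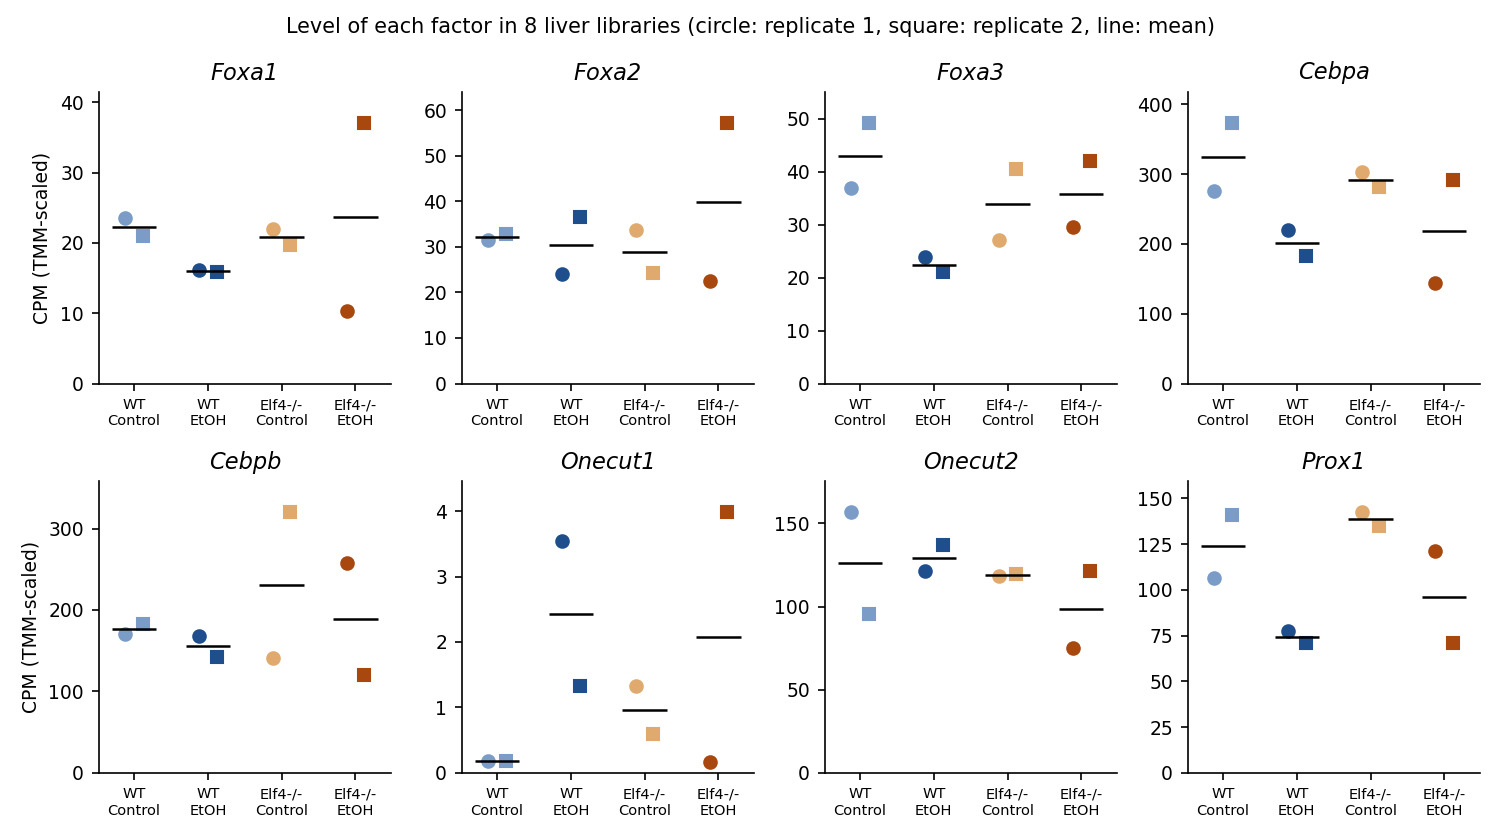
The panels plot the TMM-scaled CPM of each factor on an axis from 0, with 1 point per library in the 4 groups and a line at the group mean. For Foxa3 both WT EtOH points, 23.9 and 21.0 CPM, lie below the other 6, and in the Elf4-/- EtOH group the 2 points stand wide apart for Foxa1, Foxa2, Cebpa, Cebpb and Onecut1.

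Cebpa, the C/EBP factor of the quiescent hepatocyte, was at 276 and 373 CPM in WT livers under Control and 220 and 183 CPM under EtOH. For Elf4-/- livers the values were 303 and 281 CPM under Control and 144 and 292 CPM under EtOH. The WT groups did not overlap and the Elf4-/- groups did. Its log2 fold change was −0.69 ± 0.32 in WT (interval −1.40 to 0.03, edgeR adjusted p = 0.15), −0.42 ± 0.32 in Elf4-/- (adjusted p = 0.479) and −0.56 ± 0.23 averaged (adjusted p = 0.0925). DESeq2 called the averaged change (adjusted p = 0.0488).

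Foxa1, a pioneer factor that acts with Foxa2 in liver specification, was at 23.5 and 21.0 CPM in WT livers under Control and 16.2 and 15.9 CPM under EtOH. The WT groups did not overlap, and the log2 fold change was −0.47 ± 0.44 (edgeR adjusted p = 0.473). Elf4-/- livers gave 21.9 and 19.7 CPM under Control and 10.4 and 37.0 CPM under EtOH, the last pair being the lowest and the highest values of the 8 libraries. Foxa2 was at 31.5 and 32.9 CPM in WT livers under Control and 24.2 and 36.6 CPM under EtOH, and in Elf4-/- livers at 33.6 and 24.2 CPM under Control and 22.6 and 57.2 CPM under EtOH. Its groups overlapped in each comparison, with a log2 fold change of −0.08 ± 0.38 in WT and 0.47 ± 0.38 in Elf4-/- (edgeR adjusted p = 0.897 and 0.512). With library totals alone the Foxa2 value in WT was 0.36.

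Within the FOXA family, Foxa3 gave 47.1% and 54.4% of the summed CPM per kb in WT livers under Control, and 43.8% and 33.8% under EtOH. The Foxa3 share in Elf4-/- livers was 39.0% and 55.3% under Control and 53.3% and 36.9% under EtOH. Foxa1 was the smallest part in all 8 libraries, at 11.5% to 19.9%. The summed FOXA level was 38.5 and 44.3 CPM per kb in WT livers under Control against 26.8 and 30.5 under EtOH, groups that did not overlap. With Elf4 deleted it was 34.1 and 36.0 CPM per kb under Control and 27.1 and 55.8 under EtOH, which did.

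Cebpb was at 170 and 183 CPM in WT livers under Control and 168 and 142 CPM under EtOH, and in Elf4-/- livers at 140 and 320 CPM under Control and 258 and 120 CPM under EtOH. WT EtOH lay just below WT Control and the Elf4-/- groups each spanned more than the whole WT range. Its log2 fold change was −0.18 ± 0.41 in WT and −0.28 ± 0.41 in Elf4-/- (edgeR adjusted p = 0.778 and 0.736), with intervals of −1.10 to 0.73 and −1.19 to 0.63. With library totals alone the value in WT was 0.24. The per-length ratio of Cebpa to Cebpb was 0.926 and 1.16 in WT livers under Control and 0.745 and 0.734 under EtOH. With Elf4 deleted it was 1.23 and 0.502 under Control and 0.318 and 1.39 under EtOH, so that its lowest and highest values both came from Elf4-/- EtOH.

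**Figure D3:**
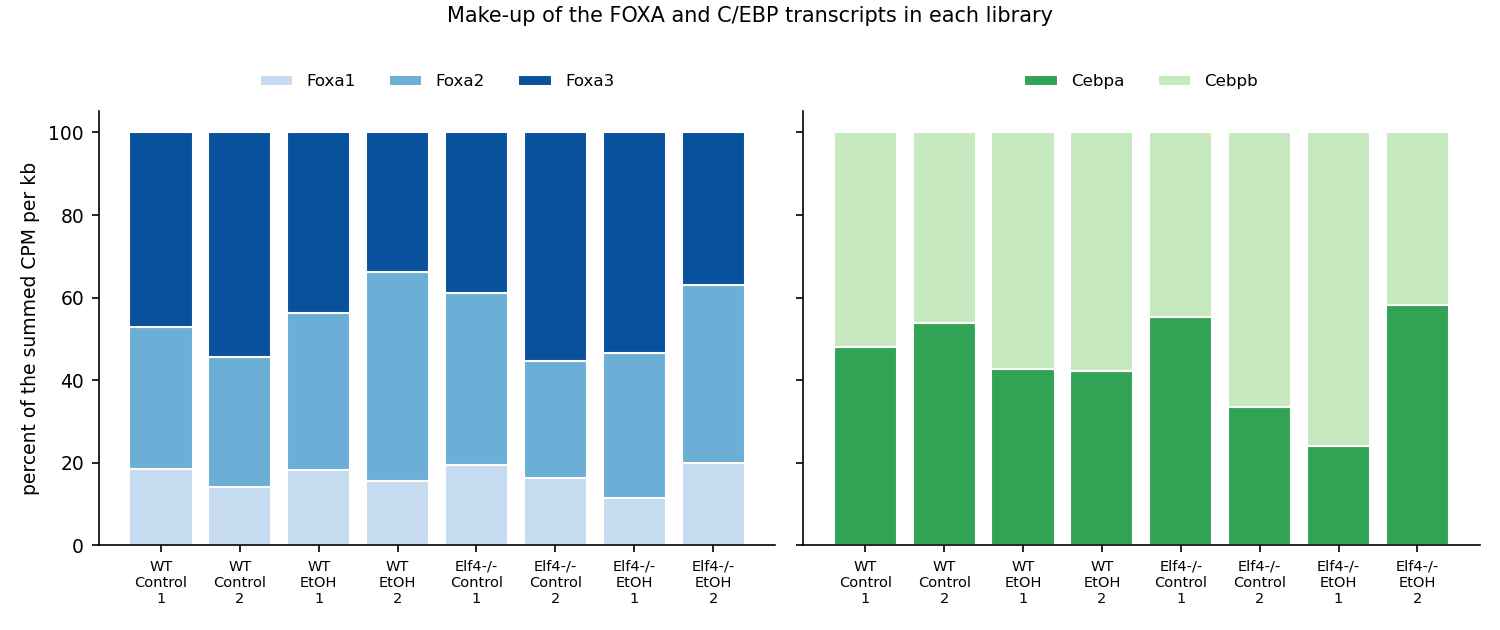
Stacked bars give the percent of the summed CPM per kb that each FOXA gene (left) and each C/EBP gene (right) took in each of the 8 libraries. The Cebpa share ran from 24.1% in Elf4-/- EtOH replicate 1 to 58.1% in Elf4-/- EtOH replicate 2, and the Foxa3 share from 33.8% to 55.3%.

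Onecut1, also called HNF6, was near the limit of detection, with 1 and 1 counts in WT livers under Control and 28 and 13 under EtOH, and in Elf4-/- livers 13 and 4 counts under Control and 1 and 30 under EtOH. The WT groups did not overlap and the Elf4-/- groups did. Summed over each group, the level in WT EtOH was 12.5 times that in WT Control (95% interval 3.24 to 107, from 41 and 2 counts). That interval covers counting error only. The fitted log2 fold change of 3.58 ± 1.44 depends on the prior count and did not pass in edgeR (adjusted p = 0.094), while it did in DESeq2 (adjusted p = 0.048). Onecut1 passed the filter on low counts through the libraries in which it was higher, so these values are not independent support for a change. In Elf4-/- the ratio of EtOH to Control was 2.17 (interval 1.17 to 4.19), and 30 of its 31 EtOH counts came from 1 library.

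Onecut2 (chr18:64340020-64400987, plus strand) was at 157 and 95.3 CPM in WT livers under Control and 121 and 137 CPM under EtOH, and in Elf4-/- livers at 118 and 120 CPM under Control and 75.1 and 122 CPM under EtOH. The groups overlapped in each diet comparison. It varied least of the 8 factors, with an SD of log2 CPM of 0.323 over the libraries beside 0.429 to 1.35 for the others. The log2 fold change for diet was 0.04 ± 0.29 in WT (interval −0.60 to 0.68, edgeR adjusted p = 0.939) and −0.27 ± 0.29 in Elf4-/- (interval −0.91 to 0.37, edgeR adjusted p = 0.625). Onecut1 gave at most 11.4% of the summed ONECUT level per kb in any library.

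Under the diet comparison in Elf4-/-, 0 of 8 members were called beside 2.89% of all tested genes. At an unadjusted p under 0.05 there were 0 members, beside 21.2% of all genes. DESeq2 called 0 members, beside 811 of all genes, and gave Onecut1 no adjusted p. The replicates of Elf4-/- EtOH differed more than those of any other group for 5 members, and also at the median of all genes averaging 50 counts or more. From replicate 1 to its partner, Foxa1 differed 3.57-fold, Foxa2 2.53-fold, Cebpa 2.03-fold and Onecut1 25-fold, each lower in replicate 1. Cebpb and Prox1 were the higher in replicate 1, by 2.15-fold and 1.71-fold. On the log2 scale the Foxa1 difference was 1.81, beside a median difference of 0.316 in the same pair over the 9398 genes averaging 50 counts or more. That median was 0.279 in WT Control, 0.180 in WT EtOH and 0.199 in Elf4-/- Control. Cebpb also differed 2.28-fold between the Elf4-/- Control replicates, and there replicate 2 was the higher.

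**Figure D4:**
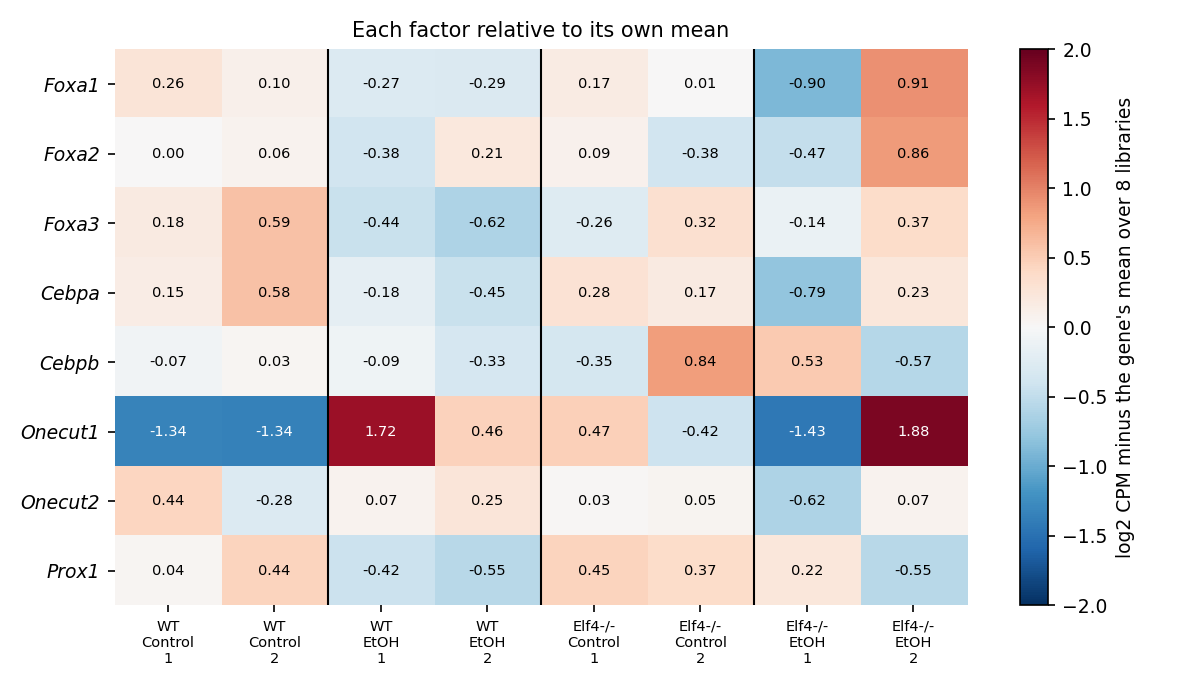
The heat map gives log2 CPM of each factor minus its own mean over the 8 libraries, with 1 column per library and the value printed in each cell. In Elf4-/- EtOH, Foxa1 stands at −0.90 in replicate 1 and 0.91 in replicate 2, while Cebpb stands at 0.53 and −0.57.

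Without Elf4-/- EtOH replicate 2, Foxa1 fell in Elf4-/- by 1.03 on the log2 scale (edgeR adjusted p = 0.028) and Cebpa by 1.04 (edgeR adjusted p = 0.0313). Without replicate 1 the Foxa1 value was 0.83, in the other direction, and it did not pass, and the Cebpa value was near 0. The group's lone library is then assumed to vary as the other groups do. The same libraries stood apart for some other genes. Lcn2 had 138 CPM in replicate 1 and 6.50 in replicate 2, Igfbp1 437 and 11.5, Cebpd 26.6 and 8.76, and Hamp 11.5 and 318. Other genes of the acute phase list varied. Saa1 (104 and 22.95 CPM), Saa2 (71.9 and 13.9 CPM) and Il1rn (9.72 and 0.398 CPM) were also higher in replicate 1. Crp at 244 and 188 CPM, Orm1 at 994 and 819 CPM and Fgg at 1201 and 1008 CPM were closer. These genes were singled out after their values were seen, and their part in the difference was not tested.

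The genotype comparisons asked whether loss of Elf4 in the intestine changed the liver under either diet. Under EtOH, 0 of 8 members were called beside 0.143% of all tested genes, and DESeq2 called 0 members beside 180 of all genes. An unadjusted p under 0.05 was found for 1 of 8, beside 10.5% of all genes. That 1 was Foxa3, which did not pass, at 0.67 ± 0.26 on the log2 scale (interval 0.09 to 1.26, unadjusted p = 0.0288, edgeR adjusted p = 0.412), with both Elf4-/- libraries above both WT libraries. Separation is common with 2 libraries a group, and the share of all genes separated in this comparison was not counted. The other members ranged from −0.39 for Onecut2 to 0.57 for Foxa1. Without Elf4-/- EtOH replicate 1 the Foxa1 value was 1.21 and passed (edgeR adjusted p = 0.0264), and without replicate 2 it was −0.64.

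Under Control, 0 of 8 members were called beside 0.0143% of all tested genes. At an unadjusted p under 0.05 there were 0 members, beside 7.31% of all genes. DESeq2 called 0 members, beside 79 of all genes, again with no adjusted p for Onecut1. Apart from Onecut1, log2 fold changes ran from −0.35 for Foxa3 to 0.38 for Cebpb. The interval for Foxa3 was −0.94 to 0.23 and for Prox1 −0.43 to 0.75. Onecut1 had 17 counts in Elf4-/- Control and 2 in WT Control, a ratio of 5.58 (interval 1.32 to 49.8, counting error only). The interaction of diet and genotype called 0 of 8 members and 0% of all tested genes, with an unadjusted p under 0.05 for Foxa3 and for 10.1% of all genes. DESeq2 called 111 genes and 0 members.

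**Figure D5:**
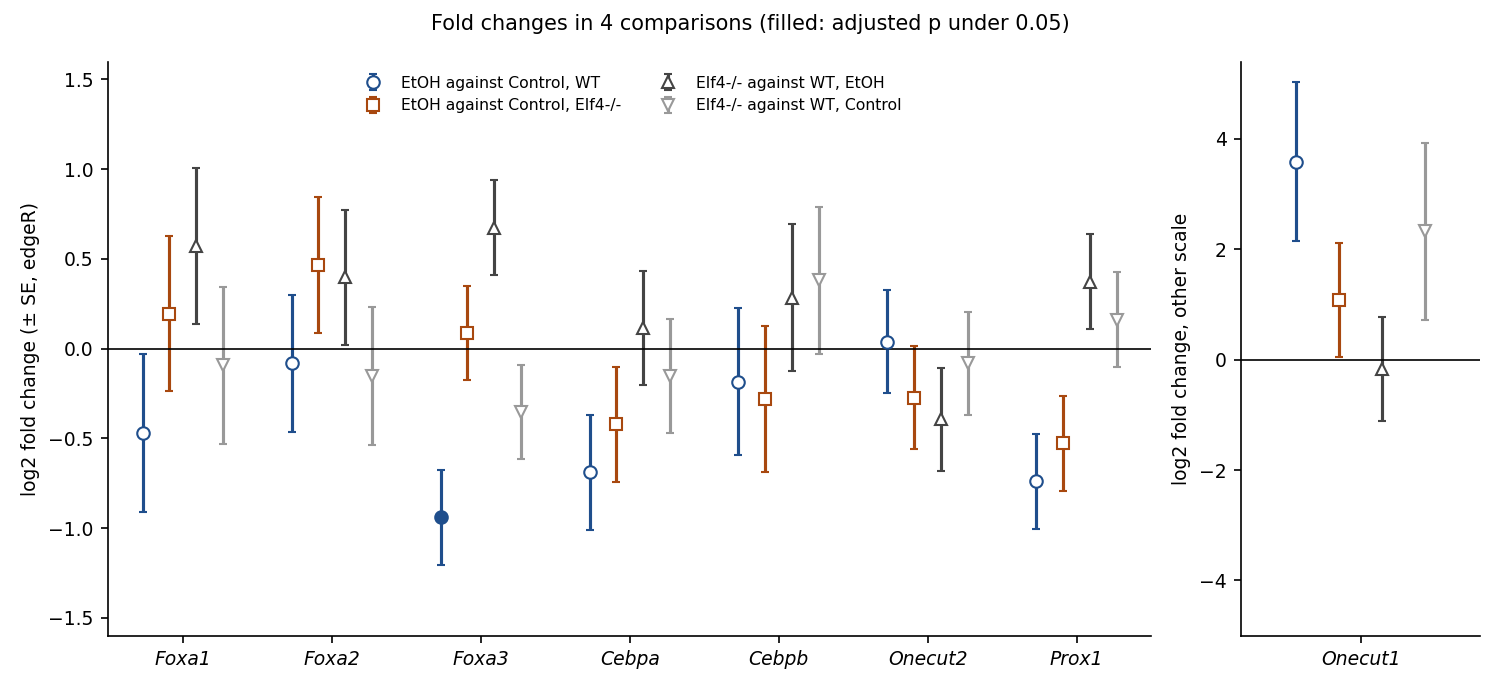
The plot of fold changes gives the edgeR log2 fold change with its SE (bars) for each factor in 4 comparisons, filled where the adjusted p was under 0.05. Foxa3 in WT, at −0.94 ± 0.27, is the 1 filled point, and Onecut1 has its own scale because its bars span several units.

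Summed markers of Kupffer, sinusoidal endothelial and stellate cells were higher under EtOH in WT, and those of Kupffer and stellate cells also in Elf4-/-, without overlap. Kupffer cell markers (7 of 7 in the table, none at 0) summed to 246 and 181 CPM under Control against 629 and 565 CPM under EtOH in WT, and to 176 and 168 CPM against 232 and 229 CPM in Elf4-/-. All 7 were higher under EtOH in WT and 3 (Vsig4, Cd5l and Marco) in Elf4-/-, the rest overlapping. Over all tested genes the diet groups did not overlap, in either direction, for 66.8% in WT and 52.2% in Elf4-/-. Sinusoidal endothelial markers (7 of 7, none at 0) gave 160 and 87.0 CPM against 352 and 433 CPM in WT, and 215 and 240.0 CPM against 335 and 211 CPM, which overlapped, in Elf4-/-. All 7 were higher in WT, while 4 were higher and Fcgr2b lower in Elf4-/-. Stellate cell markers (7 of 7, none at 0) gave 70.1 and 30.0 CPM against 232 and 303 CPM in WT, and 117 and 82.5 CPM against 316 and 186 CPM in Elf4-/-, the EtOH sums mostly from Dcn. Of the 7, 6 were higher under EtOH in WT and 3 in Elf4-/-, the rest overlapping. Hepatocyte markers summed to 61720 and 87270 CPM under Control and 54510 and 45950 CPM under EtOH in WT, and to 73340 and 81530 CPM against 53140 and 66530 CPM in Elf4-/-. The lower sum came mainly from Alb and Apoa1 in both genotypes and did not hold for the set. In WT 3 of the 9 were lower under EtOH (Alb, Apoa1 and Fgb), 3 were higher (Asgr1, Trf and Cyp2e1) and 3 overlapped. The part of cell type make-up in the Foxa3 and Prox1 values was not tested. Bile duct markers (8 of 9) gave 140 and 184 CPM in WT under Control and 79.5 and 86.7 CPM under EtOH. Among those lower without overlap were Sox9 and Spp1, and the 1 higher was Epcam, at most 3.77 CPM. In Elf4-/- the sums were 217 and 110 CPM against 80.2 and 119 CPM, with Sox9 again lower without overlap and 0 markers higher. Cftr or Cldn4 was at 0 in 6 libraries. Neutrophil markers (4 of 8) summed to 1.03 to 13.2 CPM, pancreatic acinar markers (2 of 8) to 2.75 to 9.55 CPM and intestinal epithelial markers (4 of 7) to 42.1 to 119 CPM with Fabp2 taking most of it.

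Of 19 further factors of the hepatocyte network, 3 fell and 0 rose with EtOH in WT, beside 21.6% of all tested genes called in either direction. Among them Klf15, a regulator of amino acid catabolism, fell by 1.41 ± 0.28 on the log2 scale and Zbtb20, a zinc finger repressor, by 1.25 ± 0.25. Zbtb20 was at 257 and 229 CPM in WT under Control against 87.8 and 116 CPM under EtOH. It was the 1 of 19 called in Elf4-/- (a fall of 1.30 ± 0.25, edgeR adjusted p = 0.0306), beside 2.89% of all tested genes. Its level there went from 218 and 319 CPM to 101 and 118 CPM. The call was lost when either Elf4-/- Control library, Elf4-/- EtOH replicate 1 or either WT EtOH library was left out. Fewer of all genes were called in those fits too. DESeq2 called 3 of the 19 lower in Elf4-/-, beside 359 of all genes lower. Averaged over genotypes, 2 rose and 5 fell, beside 28.0% of all tested genes called. Gata4, an endoderm zinc finger factor, rose by 0.91 ± 0.24. With library totals alone 4 of the 19 were called higher and 3 lower in WT. Compared with the full set of libraries, fewer fell in WT when either WT EtOH library was left out, and more without Elf4-/- EtOH replicate 2. Rises were called in WT when either Elf4-/- EtOH library or WT Control replicate 1 was left out. Averaged, fewer rose and fewer fell when any 1 library of Elf4-/- Control or WT EtOH was left out. More fell, averaged, without Elf4-/- EtOH replicate 2. Apart from the rise without WT Control replicate 1, the number of all genes called in that direction moved the same way.

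Among 17 relatives of the factors, 16 of them in the table, 2 rose and 3 fell with EtOH in WT, beside 21.6% of all tested genes called. Library totals turned this balance to 5 higher and 2 lower. Cux2, a cut-homeodomain gene, was at 1.31 and 0.552 CPM in WT under Control and 12.3 and 36.9 CPM under EtOH, a log2 fold change of 4.71 ± 1.33. With Elf4 deleted it was at 1.54 and 0.895 CPM under Control but 50.1 and 2.39 CPM under EtOH. The forkhead genes Foxq1, Foxp4 and Foxp1 fell, with log2 fold changes of −2.02 ± 0.61, −1.48 ± 0.32 and −1.30 ± 0.21. In Elf4-/- 0 of the 16 were called, beside 2.89% of all tested genes, and DESeq2 called 2. An unadjusted p under 0.05 was found for 8 of the 16, beside 21.2% of all genes. Averaged over genotypes, 2 rose and 6 fell, beside 28.0% of all tested genes called, against 4 higher and 3 lower with library totals. In WT, fewer rose and fewer fell when any 1 library of the 3 groups other than Elf4-/- EtOH was left out. Averaged, fewer rose in those same fits, and fewer fell without WT EtOH replicate 2 or Elf4-/- Control replicate 1. Fewer of all genes were called higher and lower in each of these fits.

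Of 20 textbook targets of these factors, 7 fell and 0 rose with EtOH in WT, beside 1507 lower and 1518 higher among the 13993 tested genes. The targets' median log2 fold change was −1.12, beside 0.01 over all genes. Library totals gave 6 lower and 2 higher, beside 634 and 3422 of all genes. DESeq2 gave 9 lower and 1 higher, beside 1418 and 1391 of all genes. When any 1 WT library was left out, fewer targets and fewer of all genes were called lower. Sds, a serine dehydratase, fell by 2.45 ± 0.53, Apoa1, the main HDL apolipoprotein, by 2.34 ± 0.43, Pck1, the gluconeogenic carboxykinase, by 1.74 ± 0.49, and the urea-cycle gene Otc fell by 1.69 ± 0.28. Apoa1 was at 12400 and 20050 CPM in WT under Control and 4208 and 2191 CPM under EtOH. In Elf4-/- 1 of 20 fell, beside 2.89% of all tested genes called in either direction. This was the glycogen synthase gene Gys2, which fell by 1.53 ± 0.35, with an edgeR adjusted p that rounds to the threshold of 0.05. There 0 fell with library totals and 4 with DESeq2, beside 140 and 359 of all genes lower. More targets fell without Elf4-/- EtOH replicate 2, and the Gys2 call was lost when any other library was left out. The number of all genes called lower moved the same way. Averaged over genotypes 7 fell and 1 rose, beside 28.0% of all tested genes called in either direction. The 1 that rose was the tryptophan dioxygenase gene Tdo2, by 0.79 ± 0.26, named after its value was seen. The Tdo2 call was lost without Elf4-/- Control replicate 1, Elf4-/- EtOH replicate 1, WT Control replicate 1 or either WT EtOH library. Fewer of all genes were called higher in each of those fits. Of 12 acute phase genes, 0 were called in either genotype by edgeR, beside 21.6% of all tested genes in WT and 2.89% in Elf4-/-. An unadjusted p under 0.05 was found for 4 in WT and 2 in Elf4-/-, beside 36.4% and 21.2% of all genes. By DESeq2 2 were lower in WT and 2 higher in Elf4-/-. Averaged over genotypes, Crp rose by 0.87 ± 0.20. For these 4 lists edgeR called 0 genes in the genotype comparisons and the interaction. The most at an unadjusted p under 0.05 was 10 of the 20 targets under EtOH, beside 10.5% of all genes. Of those 20, 16 had a positive log2 fold change, with a median of 0.845. Under Control 7 of the 12 acute phase genes had such a p, beside 7.31% of all genes. Of those 12, 2 had a positive log2 fold change, with a median of −1.02. DESeq2 called 4 targets higher in Elf4-/- under EtOH, 2 acute phase genes lower in Elf4-/- under Control and 1 target in the interaction.

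Among the 9398 genes that averaged 50 counts or more, those nearest to each factor were found by the root mean square difference of centred log2 CPM over 8 libraries. The smallest differences belonged to Onecut2, whose nearest genes were Tanc2 (0.0901), Dnase2a (0.0963) and Pak2 (0.105). For Cebpa they were Pcid2 (0.110), Map3k10 and Fignl2, for Prox1 Pfas (0.114), Ubald1 and Gm21691, and for Foxa3 Mzt2 (0.129), Gm13394 and Gm48702. For Foxa2 they were Ipo13 (0.182), Zfp598 and Aimp2, for Cebpb Hmox2 (0.202), Gm17300 and Slc38a2, and for Foxa1 Traf4 (0.205), Nfyb and Akap17b. For Onecut1 they were Gm47544 (0.669), P2ry1 and Id3. The differences depend on a gene's own spread, whose root mean square was 1.26 for Onecut1 and 0.302 for Onecut2. Within the set, Foxa1 was nearest to Foxa2 (0.292) and to Cebpa (0.315), Foxa3 to Cebpa (0.328), and Cebpb to Prox1 (0.402). All points share the same 8 libraries and their scaling.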

How the data were processed

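Liver total RNA of 8 samples was sequenced. The authors used Trizol extraction and paired-end Illumina HiSeq runs, then HISAT2 against mm10, HTSeq counting and DESeq2. Versions, annotation and strand setting are not given in the sources used here. The deposited values are whole-number counts per gene symbol, not normalized.

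Counts were filtered with filterByExpr by group, scaled by TMM and fitted in edgeR 4.0.16 (R 4.3.3) as 4 groups with no covariate, giving 4 residual degrees of freedom and a common biological coefficient of variation of 22.7%. The quasi-likelihood test was applied to 6 contrasts, with p-values adjusted by Benjamini-Hochberg over all 13993 genes and a threshold of 0.05. Log2 CPM used a prior count of 2. DESeq2 1.42.0 was an alternative, with other scalings, filters and left-out libraries. Scripts were tested on simulated data.

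Members and lists were chosen with earlier results of these data known. All members are named, and of each list at most 4 called genes per contrast, by size of log2 fold change. The values of 1 listed gene are not reported here, although the counts over its lists include it. Exon lengths and overlaps came from GENCODE M21, where 97.4% of symbols matched, and promoters from RefSeq GRCm38.p6. Library depth limits precision mainly for Onecut1, and the intervals of count ratios cover counting error only.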

Additional observations from a re-analysis of the deposited data

How the results depend on the processing

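Of the 8 factors, Foxa3 (diet in WT) and Prox1 (averaged diet) kept direction and call with DESeq2, DESeq2 size factors, both other filters, removal of mitochondrial genes and the replicate number as a block, and kept direction but lost the call with library totals. Members called in WT numbered 2 with DESeq2, 3 with only the 4 libraries compared and 0 with library totals, and averaged 3 with DESeq2 and 0 with library totals. Of all genes in WT, DESeq2 called 1391 higher and 1418 lower. With only the 4 libraries compared, 1758 were higher and 1755 lower of 13267 tested. For averaged diet DESeq2 called 1804 higher and 1783 lower. DESeq2 gave no adjusted p for Onecut1 in 3 comparisons. The replicate block left the count at 1 in both diet comparisons (WT and averaged) and changed no member's call. Replicate numbers were not taken to pair the samples, as correlations of same-numbered deviations ran from −0.134 to 0.114 over the 6 pairs of groups. Over all genes the block called 136 higher and 104 lower for diet in Elf4-/-, where 239 and 165 were called without it, and 8 and 2 in place of 17 and 3 for genotype under EtOH. DESeq2 called 452 and 359 for diet in Elf4-/-, 149 and 31 for genotype under EtOH, 45 and 34 under Control in place of 1 and 1, and 83 and 28 for the interaction in place of 0. With only the 4 libraries compared these were 22 and 18, 0 and 0, and 12 and 10 for the first 3, and with no filter 40 and 10 for genotype under EtOH, 10 and 4 under Control and 4 and 3 for the interaction. With the numbers of WT EtOH crossed, chosen after seeing the data, 1 member, 1483 genes higher and 1436 lower were called in WT.

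Library totals turned the log2 direction of Cebpb (0.24) and Foxa2 (0.36) for diet in WT, of Foxa1 (0.072) and Onecut2 (0.093) for averaged diet, of Cebpa (0.079), Foxa1 (0.15), Foxa2 (0.091) and Onecut2 (0.16) for genotype under Control, of Cebpa (−0.098) for genotype under EtOH, and of Cebpa (−0.18) and Prox1 (−0.26) for the interaction. None of these was called. This scaling moved the median of all genes by 0.43 (WT), 0.199 (averaged), 0.232 (Control), −0.232 (EtOH) and −0.465 (interaction).

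In the diet comparisons and for genotype under EtOH, leaving out 1 library in turn changed the number of members called. The number of all genes called changed too, and 1 group then held 1 library. Direction turned for these log2 values, given from lowest to highest. For diet in WT, Foxa2 ran from −0.42 to 0.18 and Onecut2 from −0.28 to 0.44. For diet in Elf4-/-, Foxa1 ran from −1.03 to 0.83, Foxa2 from −0.38 to 0.98, Foxa3 from −0.21 to 0.40, Cebpb from −0.94 to 0.43, Onecut1 from −2.54 to 1.98 and Onecut2 from −0.68 to 0.032. For averaged diet, Foxa1 ran from −0.75 to 0.18, Foxa2 from −0.24 to 0.45, Cebpb from −0.56 to 0.12 and Onecut2 from −0.33 to 0.081. For genotype under EtOH, Foxa1 ran from −0.64 to 1.21, Foxa2 from −0.44 to 0.92, Cebpa from −0.49 to 0.54, Cebpb from −0.36 to 0.73, Onecut1 from −3.78 to 0.73 and Prox1 from −0.058 to 0.70. For genotype under Control, Foxa2 ran from −0.41 to 0.066, Cebpa from −0.35 to 0.089, Cebpb from −0.33 to 0.86, Onecut2 from −0.39 to 0.32 and Prox1 from −0.021 to 0.38. For the interaction, Foxa1 ran from −0.55 to 1.30, Foxa2 from −0.29 to 1.06, Cebpa from −0.35 to 0.69, Cebpb from −0.75 to 0.62, Onecut2 from −0.71 to 0.0016 and Prox1 from −0.23 to 0.54. The cause of these changes was not tested.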
